A study of Homo sapiens with 8 samples.

Results

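Genes whose transcription is driven by the kinase ERK were examined in 2 human neuroblastoma cell lines with and without a TRPM7 shRNA. FOS, FOSL1, JUN and JUNB encode subunits of the transcription factor AP-1, EGR1 encodes a zinc finger transcription factor, DUSP4, DUSP5 and DUSP6 encode phosphatases that remove phosphate from ERK, and SPRY2 and SPRY4 encode Sprouty proteins, which restrain receptor tyrosine kinase signalling upstream of ERK. The members were every probe of the array table whose gene symbol is 1 of these names, which gave 15 of 47322 probes and 10 of 31426 symbols. DUSP4 and DUSP6 had 2 probes each and SPRY4 had 4, and a gene is given here by its brightest probe, the 1 with the highest mean over the 8 arrays. All 10 brightest probes were detected on at least 4 arrays.

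The study asked how the channel-kinase TRPM7 shapes gene expression in neuroblastoma, a childhood tumour of the neural crest lineage. The labels call SH-SY5Y cells neuroblastic and SH-EP2 cells epithelial-like. Each line was transduced with lentivirus carrying either scrambled shRNA, the control, or TRPM7 shRNA, selected with puromycin and kept in serum-containing medium. By the methods the medium was DMEM for SH-EP2 cells. For SH-SY5Y cells it was a different one, with added non-essential amino acids and glutamine. The 4 groups held 2 Illumina HumanHT-12 v4 bead arrays each, and neither the labels nor the methods say that the replicates came from separate cultures, so that p-values measure the spread between these arrays, which may be technical. The cells were stably transduced, and a single TRPM7 shRNA sequence was profiled on the arrays, which therefore do not test its action on other transcripts.

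Growth factor receptors activate ERK through RAS, RAF and MEK. Active ERK phosphorylates factors that bind DNA together with SRF at CArG boxes, and immediate early genes such as FOS and EGR1 are switched on within minutes. Products of later targets, among them the DUSP phosphatases and the Sprouty proteins, feed back on the cascade and limit it, so that their transcripts are widely used as a readout of ERK activity.

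The promoters of EGR1 and DUSP6, which changed with TRPM7 shRNA in different cell lines, are shown as examples with and without a CArG box. The pair was picked for that contrast in letters, and any link to the changes was not tested. A window from 250 bases before to 50 bases after a transcription start was found for 7 of the 10 members in the RefSeq annotation of GRCh38.p14. The 150 bases before the start are shown 5′ to 3′ on the strand of the gene, with CArG boxes in capitals. They lie at chr5:138465329-138465478 on the plus strand for EGR1 and at chr12:89352502-89352651 on the minus strand for DUSP6.
EGR1: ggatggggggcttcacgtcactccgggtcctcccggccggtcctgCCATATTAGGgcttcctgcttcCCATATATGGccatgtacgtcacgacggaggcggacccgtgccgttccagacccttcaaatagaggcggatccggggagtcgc
DUSP6: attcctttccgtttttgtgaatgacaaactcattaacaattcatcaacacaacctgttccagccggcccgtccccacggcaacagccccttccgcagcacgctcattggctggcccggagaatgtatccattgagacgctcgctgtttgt
EGR1 held 2 CArG boxes, which began 105 and 83 bases before the start. In the DUSP6 stretch there was no match to the CArG box. Both strands of the 300-base windows were searched for the CArG box, the AP-1 sites TGACTCA and TGACGTCA and the ETS site CCGGAAGT, none of which overlaps another, and the windows of FOS, JUN, JUNB, DUSP6, SPRY2 and SPRY4 held no match to any of them. Of 35116 such windows of all genes, 1.29% held a CArG box, 4.95% held TGACTCA, 1.85% held TGACGTCA and 4.14% held CCGGAAGT. A match is a description of the letters and not a measured binding site. Sites further than 250 bases before the start were not searched, so a window without a match does not show that a gene lacks such sites.

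Between 40.8% and 44.2% of probes were detected per array, at a detection p under 0.05, and replicate arrays correlated at r = 0.982 to 0.985 over all probes. The probe of TRPM7 was undetected on all 8 arrays, with detection p from 0.0753 to 0.201, and it therefore gives no measure of the knockdown. The lines were checked against 12 markers of noradrenergic and 12 of mesenchymal neuroblastoma. The noradrenergic list had a median log2 signal of 10.87 to 11.19 on SH-SY5Y arrays, with 11 genes detected, against 2.73 to 2.99 on SH-EP2 arrays with 4 or 5 detected. The mesenchymal list had medians of 6.70 to 7.65 and 10.78 to 10.87, in that order, and TWIST1, VIM, LUM and DCN of that list were lower in SH-EP2 than in SH-SY5Y control cells. With TRPM7 shRNA, 4 noradrenergic markers fell and 0 rose in SH-SY5Y cells, where 2 mesenchymal markers rose and 3 fell, and in SH-EP2 cells 1 mesenchymal marker rose and 6 fell, and 1 noradrenergic marker rose and 2 fell. The part of these shifts in the results below was not tested.

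**Figure D1:**
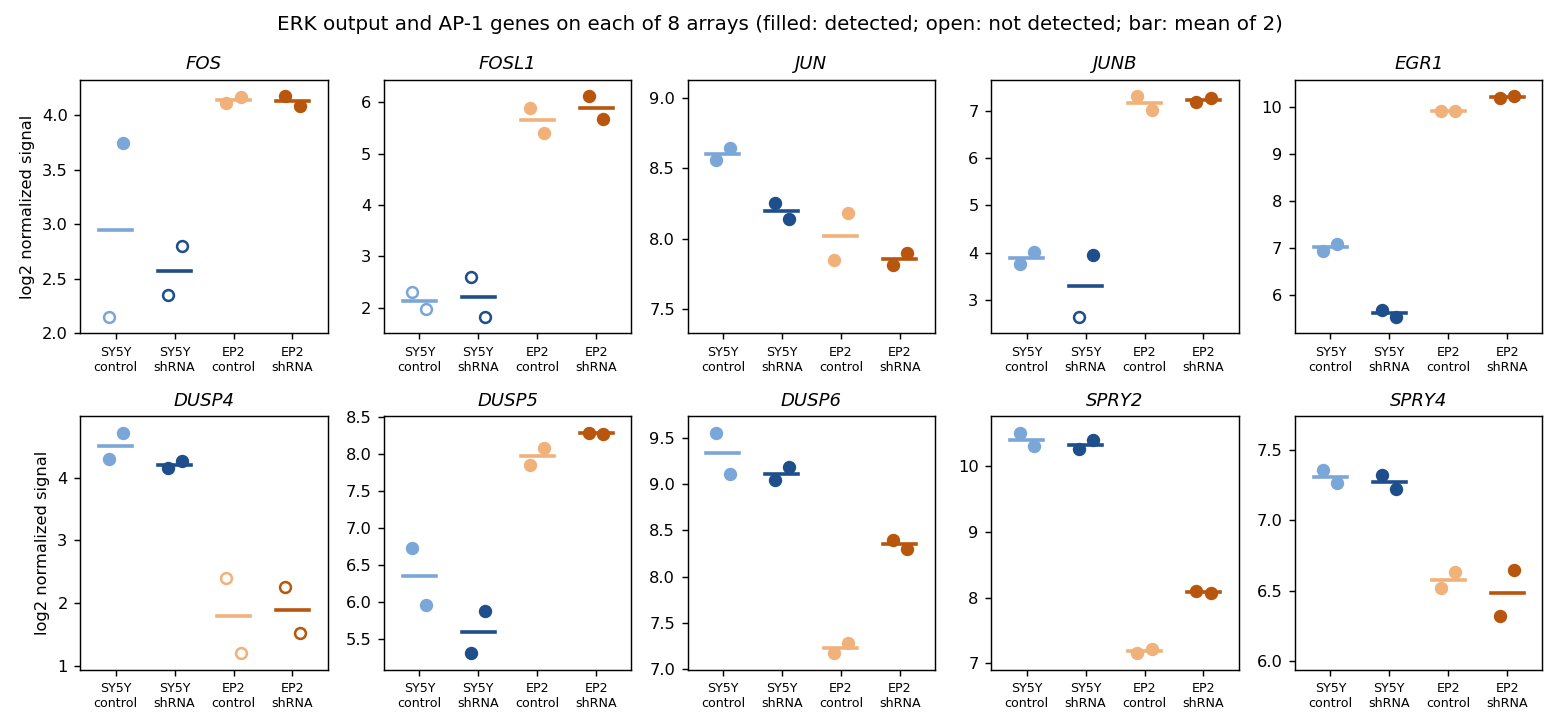
The log2 normalized signal of each member (y axis, a scale of its own per gene) on each of the 8 arrays, grouped on the x axis by cell line and shRNA, with filled points for detection p under 0.05, open points for undetected probes and bars for the mean of 2 arrays. EGR1 fell in SH-SY5Y cells with TRPM7 shRNA, DUSP6 and SPRY2 rose in SH-EP2 cells, and in most panels the lines stand further apart than the shRNA groups.

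In SH-SY5Y cells EGR1 was the 1 member of 10 that changed with TRPM7 shRNA, and it fell. Values are log2 normalized signals, tests are limma's with Benjamini-Hochberg adjustment over all probes, and a gene is called changed at an adjusted p under 0.05. By that rule 2.58% of all 31426 genes (1.01% higher and 1.57% lower) and 5.93% of the 11321 genes detected on all 8 arrays were called in this comparison. The fitted differences of the members had a median of -0.34 on the log2 scale, against 0.0034 over all genes, and 9 of 10 were negative. So were 15591 of all 31426 genes. With FOS, undetected on both TRPM7 shRNA arrays, and FOSL1, undetected in this line, both set to no difference, the median was -0.26. The differences of SPRY2 (-0.081) and SPRY4 (-0.039) were small, and with median scaling they were positive (0.042 and 0.14). At an unadjusted p under 0.05 there were 3 members, JUN, EGR1 and DUSP5, all lower. At that level there were also 3973 of all 31426 genes and 2586 of the 11321 detected on all 8 arrays, in either direction.

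Among the AP-1 subunits none passed the test in SH-SY5Y cells. FOS was close to background, at 2.15 and 3.74 in the controls, of which the latter alone was detected, and at 2.35 and 2.79 with TRPM7 shRNA. FOSL1, which encodes FRA-1, was undetected on all 4 arrays. JUN, a dimerization partner of the FOS proteins, was clearly detected, at 8.56 and 8.65 in the controls and 8.25 and 8.14 with TRPM7 shRNA. Both shRNA arrays lay below both controls, and the difference of -0.41 had an adjusted p of 0.158 and a 95% interval from -0.68 to -0.13. JUNB was at 3.77 and 4.01 in the controls and at 2.65, undetected, and 3.95 with TRPM7 shRNA, so that 1 shRNA array lay below both controls and the other between them (difference -0.59, adjusted p = 0.526). The value of JUNB rested on 1 array, since without TRPM7 shRNA replicate 2 its difference was -1.22 with an adjusted p of 0.0339, and without replicate 1 it was 0.058 with an adjusted p of 0.980.

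EGR1 had deposited signals of 245.9 and 212.1 on the control arrays and 171.8 and 172.9 on the TRPM7 shRNA arrays. After normalization these were 6.94 and 7.08 in the controls and 5.70 and 5.55 with TRPM7 shRNA on the log2 scale. The groups did not overlap and lay further apart than the replicates of either. The difference was -1.39 (SE 0.12, 95% interval -1.64 to -1.13), a 2.62-fold lower signal, with an adjusted p of 6.67e-07. The size of the fall depends on the background correction, since it was -0.74 with a normexp correction and -0.58 with none, both past the threshold. Leaving out single arrays ended the call in 0 of 8 fits, and without an intensity trend in the spread estimate it ended, at an adjusted p of 0.0546.

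None of the feedback genes passed the test in SH-SY5Y cells. DUSP5, a nuclear phosphatase of ERK, was at 6.73 and 5.97 in the controls and 5.31 and 5.88 with TRPM7 shRNA. Both shRNA arrays were below both controls, with a difference of -0.75 and an adjusted p of 0.0971. It passed the threshold without control replicate 2 (-1.13, adjusted p = 0.0103) and without TRPM7 shRNA replicate 2 (-1.04, adjusted p = 0.0353), while without replicate 1 of either group it was -0.37 (control, adjusted p = 0.550) and -0.46 (TRPM7 shRNA, adjusted p = 0.574). DUSP4, also a nuclear phosphatase, was dim, at 4.30 and 4.71 in the controls and 4.16 and 4.26 with TRPM7 shRNA (difference -0.30, adjusted p = 0.908). DUSP6, the cytoplasmic phosphatase of ERK, was at 9.55 and 9.11 in the controls and 9.04 and 9.18 with TRPM7 shRNA, with a difference of -0.22 and a 95% interval from -0.51 to 0.062. Its control replicates lay further apart than the means of the groups. SPRY2 was at 10.50 and 10.30 against 10.25 and 10.39, and SPRY4 at 7.36 and 7.26 against 7.32 and 7.22. Both Sprouty genes had overlapping groups, with 95% intervals of the difference from -0.31 to 0.15 for SPRY2 and from -0.39 to 0.31 for SPRY4.

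**Figure D2:**
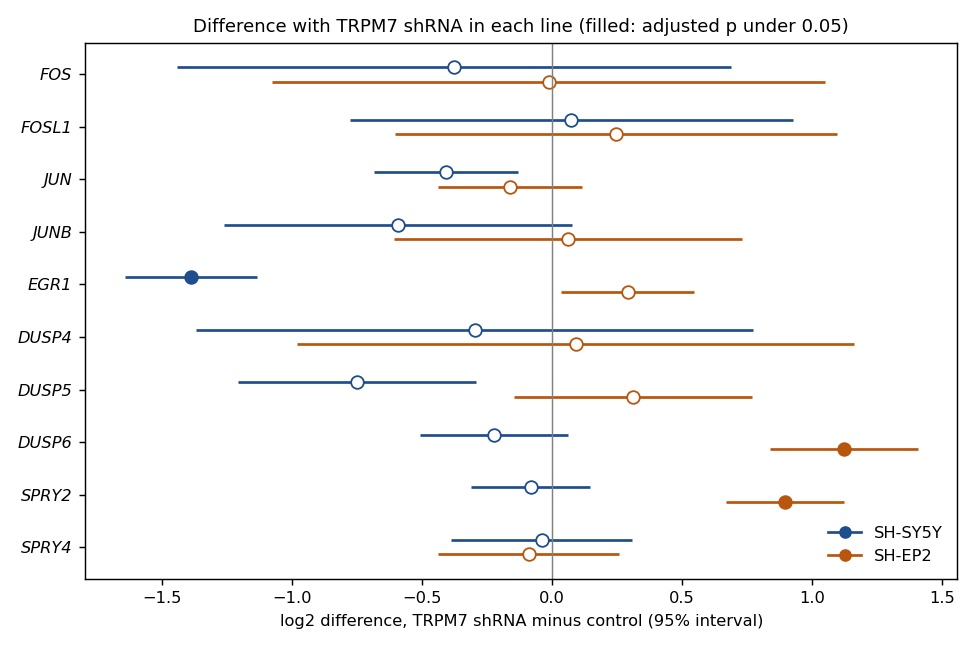
The difference between TRPM7 shRNA and control arrays for each member (x axis, log2, points with 95% intervals) in SH-SY5Y (blue) and SH-EP2 (orange) cells, with filled points where the adjusted p was under 0.05. EGR1 stands at -1.39 in SH-SY5Y cells, DUSP6 and SPRY2 stand at 1.12 and 0.90 in SH-EP2 cells, and the intervals are widest for the dim genes FOS and DUSP4.

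In SH-EP2 cells the feedback inhibitors DUSP6 and SPRY2 rose with TRPM7 shRNA, and the other 8 members did not pass the test. In this comparison 3.68% of all genes were called (1.83% higher and 1.86% lower), and 8.29% of those detected on all 8 arrays. The fitted differences had a median of 0.17 against 0.010 over all genes, or of 0.15 with the undetected DUSP4 at no difference, and 7 of 10 were positive. So were 16130 of all 31426 genes.

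DUSP6 had deposited signals of 263.0 and 254.7 on the control arrays and 452.8 and 429.4 on the TRPM7 shRNA arrays. On the log2 scale the normalized signals were 7.17 and 7.28 in the controls and 8.40 and 8.30 with TRPM7 shRNA. Both shRNA arrays stood well above both controls, and replicates were close. The difference was 1.12 (SE 0.14, 95% interval 0.84 to 1.41), a 2.18-fold higher signal, with an adjusted p of 3.55e-05. The second DUSP6 probe was dim, detected on 1 of 2 control arrays, and its difference of 0.94 did not pass the test (adjusted p = 0.231). SPRY2 had deposited signals of 261.1 and 248.0 in the controls and 388.9 and 380.3 with TRPM7 shRNA. Its normalized signals were 7.15 and 7.21 in the controls and 8.10 and 8.06 with TRPM7 shRNA, and again the groups were well apart. The difference was 0.90 (SE 0.11, 95% interval 0.67 to 1.13), a 1.86-fold higher signal, with an adjusted p of 3.90e-05. Both calls held with each array left out in turn and ended without an intensity trend in the spread estimate (adjusted p = 0.118 for DUSP6 and 0.125 for SPRY2). Without background correction the differences were 0.74 for DUSP6 and 0.57 for SPRY2.

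The other feedback genes of SH-EP2 cells gave no call. DUSP5 was at 7.85 and 8.08 in the controls and at 8.28 and 8.27 with TRPM7 shRNA. The arrays did not overlap, and the difference of 0.31 had an adjusted p of 0.641. SPRY4 was at 6.52 and 6.63 against 6.32 and 6.65, with overlapping arrays and a 95% interval of the difference from -0.44 to 0.26. DUSP4 was undetected on all 4 SH-EP2 arrays by either of its probes.

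EGR1 in SH-EP2 cells was at 9.90 and 9.91 in the controls and at 10.18 and 10.22 with TRPM7 shRNA. Both shRNA arrays were higher and the replicates were very close, with a difference of 0.29 (95% interval 0.037 to 0.55), and it was not called in the fit of all groups (adjusted p = 0.293). Where each line was normalized and fitted alone it passed, at 0.30 with an adjusted p of 0.0156. None of the AP-1 subunits passed the test. FOS was at 4.11 and 4.17 against 4.18 and 4.09, FOSL1 at 5.89 and 5.41 against 6.12 and 5.67, JUN at 7.85 and 8.18 against 7.81 and 7.90, and JUNB at 7.31 and 7.03 against 7.19 and 7.28. In all 4 genes the shRNA and control arrays overlapped, with adjusted p from 0.711 to 0.997.

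The effect of TRPM7 shRNA differed between the lines for EGR1, DUSP6 and SPRY2. The difference was tested as an interaction, the effect in SH-EP2 cells minus that in SH-SY5Y cells, by which 1.8% of all genes (0.999% upward in SH-EP2 relative to SH-SY5Y cells and 0.802% downward) and 3.82% of those detected on all 8 arrays were called. It was 1.68 for EGR1 (SE 0.17, adjusted p = 9.02e-06), from -1.39 in SH-SY5Y and 0.29 in SH-EP2 cells. For DUSP6 it was 1.35 (SE 0.19, adjusted p = 0.000407), and for SPRY2 it was 0.98 (SE 0.15, adjusted p = 0.00112). DUSP5 had an interaction of 1.06 in the same direction that did not pass (adjusted p = 0.122), and it passed without SH-SY5Y control replicate 2 (1.44, adjusted p = 0.0126) and without SH-SY5Y TRPM7 shRNA replicate 2 (1.36, adjusted p = 0.0403). Without SH-SY5Y control replicate 1 it was 0.68 (adjusted p = 0.357), and without SH-SY5Y TRPM7 shRNA replicate 1 it was 0.78 (adjusted p = 0.388). The 3 interaction calls ended without an intensity trend in the spread estimate (adjusted p = 0.0921 for EGR1, 0.243 for DUSP6 and 0.287 for SPRY2), and without background correction the interaction of EGR1 was 0.84. SPRY4 gave -0.050, with a 95% interval from -0.54 to 0.44.

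The control cells of the lines differed in 9 of 10 members, 4 of them higher and 5 lower in SH-EP2 cells. This comparison calls 30.1% of all genes (14.2% higher and 15.9% lower in SH-EP2 cells) and 61.5% of those detected on all 8 arrays. It uses the same control arrays as the comparisons of TRPM7 shRNA. The lines were kept in different media, so that line and medium cannot be told apart. The AP-1 subunits FOSL1 and JUNB together with EGR1 and DUSP5 were higher in SH-EP2 cells, while DUSP4, DUSP6, both Sprouty genes and JUN were higher in SH-SY5Y cells.

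FOSL1 was detected on both SH-EP2 control arrays, at 5.89 and 5.41, and on neither SH-SY5Y control array. It was at least 5.64-fold higher in SH-EP2 cells (adjusted p = 6.82e-07), a bound set by the lowest signal among detected probes. JUNB was at 7.31 and 7.03 in SH-EP2 against 3.77 and 4.01 in SH-SY5Y control cells, a difference of 3.28 (SE 0.32, adjusted p = 6.07e-08). EGR1 differed by 2.89 (SE 0.12, adjusted p = 1.41e-13), a 7.43-fold higher signal in SH-EP2 cells. DUSP5 differed by 1.62 (SE 0.22, adjusted p = 5.44e-06). FOS was detected on both SH-EP2 control arrays and 1 of 2 in SH-SY5Y, and its difference of 1.19 was not called (adjusted p = 0.100). It was called without SH-SY5Y control replicate 2, the array on which FOS was detected (2.02, adjusted p = 0.00993), and without SH-SY5Y control replicate 1 the difference was 0.39 (adjusted p = 0.689). The sizes, and the bound of FOSL1, hold for signals after the background correction of RMA. Without background correction FOSL1 (0.60, a 1.51-fold higher signal), JUNB (1.01), EGR1 (2.14, a 4.42-fold higher signal) and DUSP5 (0.89) kept their calls at smaller differences.

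SPRY2 was at 10.50 and 10.30 in SH-SY5Y against 7.15 and 7.21 in SH-EP2 control cells. The lines were separated by far more than the replicates, with a difference of -3.22 (SE 0.11, adjusted p = 4.25e-15), a 9.31-fold lower signal in SH-EP2 cells. DUSP6 was 4.31-fold lower in SH-EP2 cells, with a difference of -2.11 (SE 0.14, adjusted p = 1.18e-10), and its second probe gave -2.30 (adjusted p = 3.37e-05). Without background correction SPRY2 differed by -2.50, a 5.67-fold lower signal, and DUSP6 by -1.53, a 2.89-fold lower signal. DUSP4 was detected on both SH-SY5Y control arrays alone and was at least 2.43-fold lower in SH-EP2 cells (adjusted p = 0.000289), and without background correction its difference was -0.41, a 1.33-fold lower signal. Over the mean of both its probes the difference was -1.71. SPRY4 differed by -0.74 (SE 0.17, adjusted p = 0.00163). The call of SPRY4 rests on its brightest probe, since over the mean of its 4 probes, 2 of them undetected on every array, the difference was -0.49 (adjusted p = 0.335). JUN differed by -0.58 (adjusted p = 0.00168), and without SH-EP2 control replicate 1 by -0.42 (adjusted p = 0.0606).

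With TRPM7 shRNA the SH-EP2 means of DUSP6 and SPRY2, 8.35 and 8.08, lay between the SH-EP2 and SH-SY5Y control means, which were 7.23 and 9.33 for DUSP6 and 7.18 and 10.40 for SPRY2. The EGR1 mean of SH-SY5Y cells with TRPM7 shRNA, 5.63, lay on the far side of the SH-SY5Y control mean of 7.01 from the SH-EP2 control mean of 9.91.

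**Figure D3:**
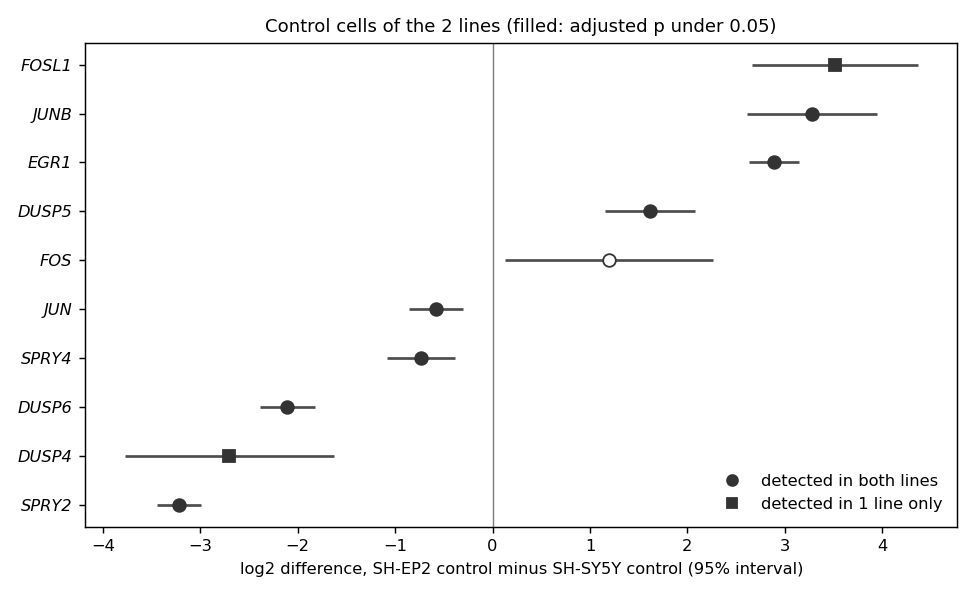
The difference between SH-EP2 and SH-SY5Y control arrays for each member (x axis, log2, points with 95% intervals), ordered by size, with filled points where the adjusted p was under 0.05 and squares where the gene was detected in 1 line only, for which the fitted value is no measured size. FOSL1, JUNB, EGR1 and DUSP5 lie to the right, higher in SH-EP2 cells, and JUN, SPRY4, DUSP6, DUSP4 and SPRY2 lie to the left.

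Genes around the cascade were examined in 5 lists. Their counts stand beside the shares of all genes called with TRPM7 shRNA, 2.58% in SH-SY5Y and 3.68% in SH-EP2 cells. Of genes detected on all 8 arrays 5.93% and 8.29% were called, in that order. Of 16 other immediate early and ERK-induced transcription regulators, 5 rose and 0 fell in SH-EP2 cells with TRPM7 shRNA, where 1.83% of all genes rose, and the fitted median was 0.41, or 0.31 with undetected genes at their bound or at no difference. ETV4, an ETS factor induced by ERK, was at 3.38 and at 2.36, undetected, in the controls and at 4.70 and 5.07 with TRPM7 shRNA (difference 2.02, adjusted p = 0.00017). IER3, an immediate early gene linked to survival, rose from 6.85 and 6.70 to 8.51 and 8.75 (1.85, adjusted p = 0.000136). PHLDA1 rose from 7.21 and 7.61 to 8.82 and 8.87 (1.44, adjusted p = 6.78e-06). In these 3 genes both shRNA arrays lay above both controls, as the rule for naming them required. The other calls, named after their values were seen, were CCND1, the cyclin D1 gene (0.52, adjusted p = 0.00115), and MYC (0.49, adjusted p = 0.0438). The call of MYC held in 4 of 17 alternatives and was lost without any 1 of the 4 SH-EP2 arrays or of the SH-SY5Y TRPM7 shRNA arrays, with values from 0.37 to 0.61 when single arrays were left out. The calls of ETV4, PHLDA1 and CCND1 held in 16 and that of IER3 in 17. The size for ETV4, a dim gene, was 0.30 without background correction (adjusted p = 0.0177), and that for IER3 was 1.19.

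**Figure D4:**
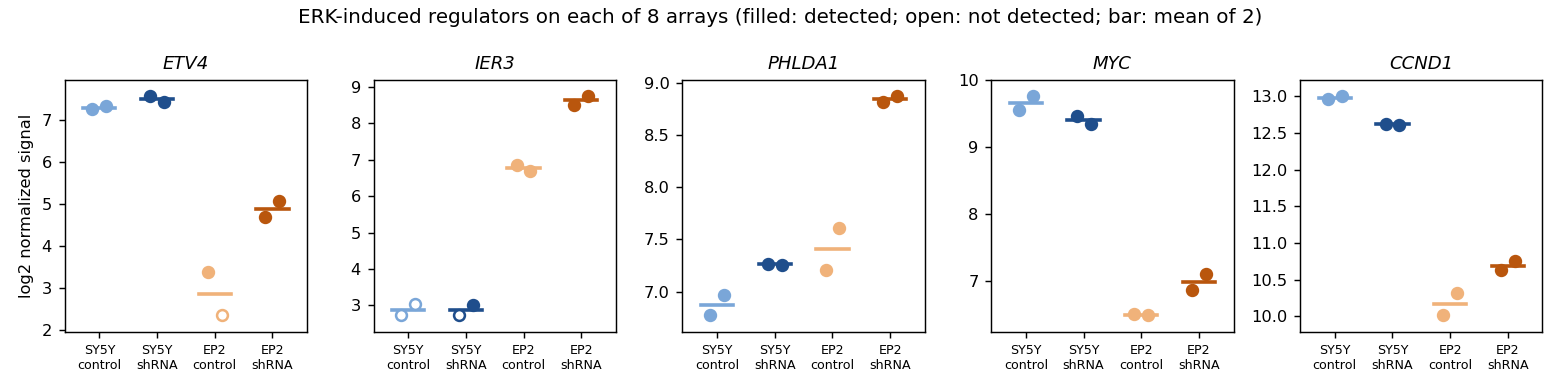
The log2 normalized signal (y axis, a scale of its own per gene) of the 5 ERK-induced regulators called in SH-EP2 cells, on each of the 8 arrays grouped by cell line and shRNA, with filled points for detected and open points for undetected probes and bars for the mean of 2 arrays. In each panel both SH-EP2 arrays with TRPM7 shRNA lie above both SH-EP2 controls, and in the CCND1 panel the SH-SY5Y arrays with TRPM7 shRNA lie below their controls.

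In SH-SY5Y cells 1 of these 16 regulators was called, CCND1, which fell from 12.96 and 13.00 to 12.62 and 12.61 (-0.36, adjusted p = 0.03). This small fall lost its call without any 1 of the 4 SH-SY5Y arrays, at -0.39 to -0.35. The effect of TRPM7 shRNA differed between the lines, upward in SH-EP2 cells, for 5 of the 16 and in the opposite direction for 0, where 0.999% of all genes were called upward. These were IER3 (1.86, adjusted p = 0.00716), ETV4 (1.81, adjusted p = 0.0209), PHLDA1 (1.05, adjusted p = 0.0119), CCND1 (0.89, adjusted p = 0.000322) and MYC (0.75, adjusted p = 0.0482). The IER3 probe was undetected on both SH-SY5Y control arrays and on TRPM7 shRNA replicate 1, so a fall in that line could not be seen. In the other lists interaction calls went downward only. They were 1 of 12 AP-1 subunits and partners, 1 of 23 core genes and 1 of 12 ligands and proteases. The 13 other feedback inhibitors had 0, and 0.802% of all genes were called downward. Over 16 alternatives 0 to 6 of the 16 regulators were called, 0 without an intensity trend and 1 without SH-EP2 TRPM7 shRNA replicate 2. The call of CCND1 held in 15 alternatives and in all 8 fits with 1 array left out, that of IER3 in 12 and 5, that of PHLDA1 in 10 and 4, that of ETV4 in 5 and 2 and that of MYC in 5 and 1. The call of IER3 was lost without SH-EP2 control replicate 2 or either SH-EP2 TRPM7 shRNA array (1.74 to 1.98). That of PHLDA1 was lost without SH-EP2 control replicate 1, either SH-EP2 TRPM7 shRNA array or SH-SY5Y control replicate 2 (0.85 to 1.08). That of ETV4 held only without SH-EP2 control replicate 1 or SH-EP2 TRPM7 shRNA replicate 1, and that of MYC only without SH-SY5Y control replicate 1, among these fits. Between the control cells 6 of the 16 were higher and 4 lower in SH-EP2 cells. Of all genes 14.2% were higher and 15.9% lower, and 61.5% of those detected on all 8 arrays differed. IER3 was at least 12.3-fold and KLF10, a zinc finger gene induced early by growth factors, 7.81-fold higher, with differences of 0.93 and 0.62 on the log2 scale without background correction, while ETV4 differed by -4.43 (adjusted p = 8.91e-11) and MYC by -3.15 (adjusted p = 9.92e-14). Without background correction the difference of ETV4 was -1.22. The KLF10 probe was detected on 1 of 2 SH-SY5Y control arrays. Over the mean of its probes KLF10 differed by 1.68, a 3.20-fold higher signal.

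Of 12 other AP-1 subunits and partners, JUND was the 1 called in SH-SY5Y cells, and JUND and JDP2, a repressor that dimerizes with JUN proteins, were called in SH-EP2 cells. JUND fell from 11.91 and 11.97 to 11.47 and 11.67 in SH-SY5Y cells (-0.38, adjusted p = 0.00976) and from 11.85 and 11.94 to 11.44 and 11.47 in SH-EP2 cells (-0.44, adjusted p = 0.00168). That the groups did not overlap in either line was a condition for naming JUND. In SH-SY5Y cells the call was lost without control replicate 2 or TRPM7 shRNA replicate 1 (range of single leave-outs -0.47 to -0.27) and with median scaling, and in SH-EP2 cells without control replicate 2 (-0.41). JDP2 fell from 5.97 and 6.15 to 5.03 and 5.18 (-0.95, adjusted p = 0.0275), a call lost without any 1 of the 4 SH-EP2 arrays, at -1.04 to -0.85. In SH-SY5Y cells JDP2 was not called and stood higher with TRPM7 shRNA, at 5.58 and 5.76 against 4.97 and 4.98. The fitted medians of the list were 0.25 in SH-SY5Y and 0.025 in SH-EP2 cells, and both were 0 with undetected genes at their bound or at no difference. Between the control cells 5 of the 12 were higher in SH-EP2 cells, among them BATF3, at least 2.36-fold, and FOSL2, the FRA-2 gene (1.68, adjusted p = 0.00173). Lower in SH-EP2 cells was 1, MAFF (-1.68, adjusted p = 0.00349). In this comparison 30.1% of all genes and 61.5% of those detected on all 8 arrays were called. The calls of BATF3 and MAFF were lost without SH-EP2 control replicate 2, at differences of 1.28 and -1.28. The call of MAFF was also lost over the mean of its probes (-0.48, adjusted p = 0.454) and without an intensity trend (adjusted p = 0.0505). Without background correction the differences were 0.23 for BATF3, 0.27 for FOSL2 and -0.26 for MAFF.

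Of 13 other feedback inhibitors of the cascade, 0 were called in SH-EP2 cells by limma, with a fitted median of -0.012. There 4 of the 13 had an unadjusted p under 0.05. So had 4394 of all 31426 genes and 2963 of the 11321 detected on all 8 arrays. In SH-SY5Y cells DUSP2, a nuclear phosphatase, fell from 5.90 and 4.97 to 3.99 and 4.33 (-1.28, adjusted p = 0.0399), with a fitted median of the list of -0.28. This call held in 2 of 17 alternatives, was lost without any 1 array except SH-SY5Y control replicate 2, and ranged from -1.74 to -0.80 when single arrays were left out. The control cells differed in 6 of the 13, where 30.1% of all genes and 61.5% of those detected on all 8 arrays differed. Of the 6, DUSP10, a phosphatase of stress-activated kinases, was higher in SH-EP2 cells (1.44, adjusted p = 1.4e-05, or 0.61 without background correction). The other 5 were lower, among them IL17RD, also named SEF (-2.04, adjusted p = 4.78e-11), and SPRY1 (-1.46, adjusted p = 2.15e-09).

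The core of the cascade held 23 genes, from GRB2 and RAS to the ribosomal S6 kinases and SRF. In SH-SY5Y cells 0 were called by limma and 3 had an unadjusted p under 0.05. So had 3973 of all 31426 genes and 2586 of the 11321 detected on all 8 arrays. In SH-EP2 cells 2 fell, where 3.68% of all genes and 8.29% of those detected on all 8 arrays were called in either direction. RPS6KA2, which encodes the kinase RSK3, was at 9.48 and 9.49 in the controls and 8.49 and 8.40 with TRPM7 shRNA (-1.04, adjusted p = 4.06e-06). Over the mean of all its probes the difference was -0.075 (adjusted p = 0.968), so that its probes disagreed. MAP2K1, the MEK1 gene, fell from 9.53 and 9.60 to 9.10 and 9.19 (-0.42, adjusted p = 0.0229), a call lost without any 1 of the 4 SH-EP2 arrays, at -0.47 to -0.38. SRF itself was not called in either line (-0.14, adjusted p = 0.685, and -0.31, adjusted p = 0.124). Between the control cells 7 of the 23 were higher in SH-EP2 cells, led by RPS6KA3 (1.65, adjusted p = 0.000216) and SHC1 (1.07, adjusted p = 5.27e-10). Lower in SH-EP2 cells were 2, GRB2 (-0.77, adjusted p = 0.000109) and NRAS (-0.70, adjusted p = 0.0011). This comparison called 30.1% of all genes and 61.5% of those detected on all 8 arrays. The value of RPS6KA3 was 0.94 without SH-SY5Y control replicate 2, 0.84 over the mean of its probes and 0.53 without background correction, all past the threshold.

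Of 12 ligands, proteases and protease inhibitors that ERK and AP-1 can induce, 3 fell and 0 rose in SH-EP2 cells with TRPM7 shRNA, where 1.86% of all genes fell, although the fitted median was 0.29, or 0 with undetected genes at their bound or at no difference. HBEGF, a ligand of the EGF receptor, fell from 8.71 and 8.77 to 7.90 and 8.19 (-0.69, adjusted p = 0.013), and TIMP1, a metalloprotease inhibitor, from 13.01 and 12.95 to 12.55 on both arrays (-0.43, adjusted p = 0.00146). That the groups did not overlap was a condition for naming HBEGF and TIMP1. The call of HBEGF was lost without any 1 of the 4 SH-EP2 arrays except TRPM7 shRNA replicate 2, at -0.83 to -0.54. In SH-SY5Y cells VEGFA fell from 5.05 and 6.22 to 4.53 and 4.41 (-1.16, adjusted p = 0.0293), a call that held in 5 of 17 alternatives and was lost without any 1 SH-SY5Y array except control replicate 1 and without either SH-EP2 control array, at -1.76 to -0.57. Of the 12 genes 8 were higher in SH-EP2 control cells, among them the urokinase gene PLAU (5.89, adjusted p = 3.81e-17), and 0 were lower. Of all genes 14.2% were called higher in that comparison, and 61.5% of those detected on all 8 arrays were called in either direction.

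**Figure D5:**
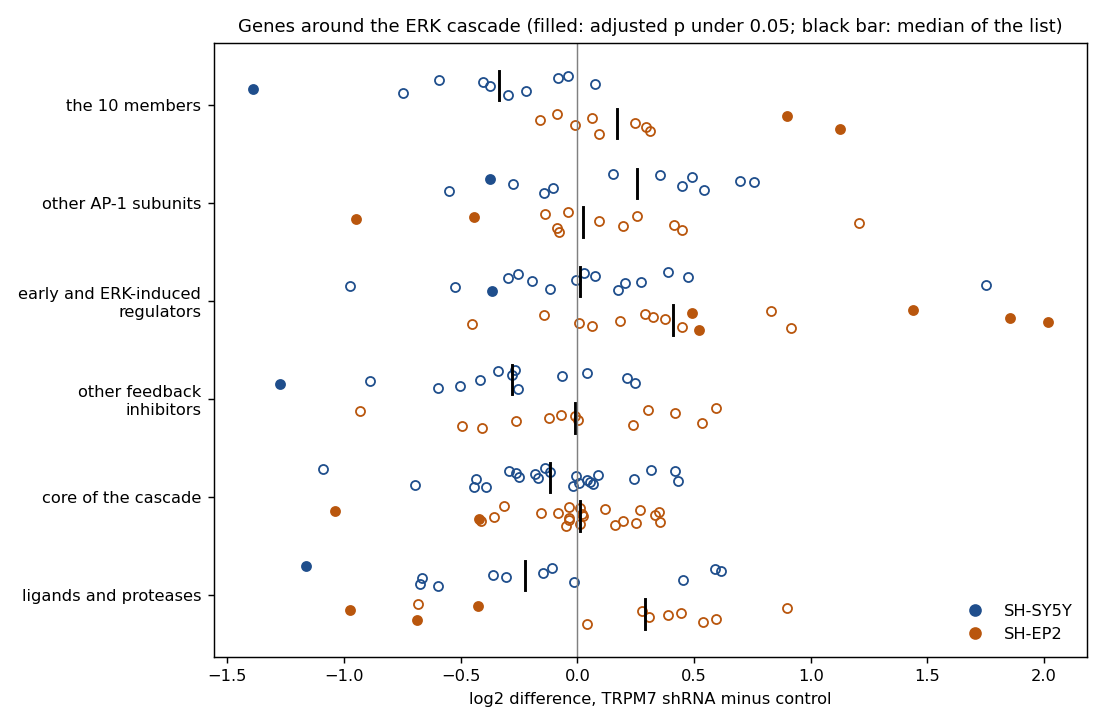
The fitted difference between TRPM7 shRNA and control arrays (x axis, log2) of every gene of the members and of the 5 lists (y axis), in SH-SY5Y (blue) and SH-EP2 (orange) cells, with filled points where the adjusted p was under 0.05 and black bars for the fitted median of the list. The filled points of the members and of the ERK-induced regulators lie to the right in SH-EP2 cells, and those of the AP-1 subunits, the core of the cascade and the ligands lie to the left.

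The genes with the pattern most like that of EGR1, DUSP6 and SPRY2 over the 8 arrays were found by the root mean square difference of log2 signals, each less its own mean, among 19423 or 19424 probes detected on at least 4 arrays. For EGR1 they were MLKL (0.145), C22orf15 (0.206) and GLT8D2 (0.246), in log2 units. For DUSP6 they were PARG (0.106), KIAA0114, now named DANCR (0.161), and ASGR1 (0.164). For SPRY2 they were TSGA14, now named CEP41 (0.073), CAMK2N1 (0.105) and SLC25A29 (0.126). None of these 9 genes is a member or in any of the 5 lists.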

How the data were processed

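Total RNA of 8 samples was hybridised to Illumina HumanHT-12 v4 arrays. The authors extracted bead signals in GenomeStudio 2011.1 and deposited the intensity of 47322 probes per array on a linear scale, not normalized, with the detection p-value of each probe as deposited beside it. Genome build and probe coordinates are not given in the sources used here. The methods name RMA normalization and p-values calculated in Multi Experiment Viewer, with genes taken at p under 0.05. They do not name the test.

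Here the background was subtracted by the model of RMA, all 8 arrays were quantile normalized together and converted to log2 values, and no probe was filtered. Groups followed the cell line and shRNA of the labels. limma 3.58.1 with statmod 1.5.0 in R 4.3.3 was fitted to 4 groups (lmFit, eBayes with an intensity trend), with two-sided tests and Benjamini-Hochberg adjustment over all probes, and the procedure was tested on simulated data. Quantile normalization sets the distribution of every array equal, and the RMA model stretches fold changes of dim probes. The number of arrays limits the precision. Where a group detected a probe on neither array, its level was replaced on each array by the dimmest detected probe, or by the probe itself if that was brighter, which turns the fold into a lower bound.

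All 10 members are named. From each list at most the first 3 genes by size in each direction were named for a TRPM7 shRNA comparison, and the first 2 between the lines, among called genes with groups that did not overlap and with detection on the 2 brighter arrays. In the lists, 1 gene enters the counts and medians and is not reported singly here. The members, lists, tests and alternatives were chosen with earlier results of these data known. For background, neqc (offset 16), normexp (offset 50) and no correction were tried. Median scaling, a filter on detection on at least 2 arrays, eBayes without a trend, fits of each line alone, a replicate block, averaging the probes of each symbol and dropping single arrays were the other alternatives. A lone array was then assumed to vary like the other groups.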

Additional observations from a re-analysis of the deposited data

Results flagged for a closer look

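The effect of TRPM7 shRNA differed between the cell lines, by the interaction term of the limma fit, for 3 of the 10 members. By the same term 1.8% of all genes and 3.82% of those detected on all 8 arrays were called. EGR1 fell in SH-SY5Y cells and stood at 0.29, without passing the test, in SH-EP2 cells, a difference of effects of 1.68 on the log2 scale (adjusted p = 9.02e-06). DUSP6 rose in SH-EP2 cells and stood at -0.22, without passing the test, in SH-SY5Y cells, a difference of effects of 1.35 (adjusted p = 0.000407). SPRY2 rose in SH-EP2 cells and overlapped between the groups in SH-SY5Y cells, a difference of effects of 0.98 (adjusted p = 0.00112).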

How the results depend on the processing

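No member that was called changed direction under any of 17 alternatives within a line or 16 for the other comparisons, while members not called changed sign 10 times in SH-SY5Y cells, 8 times in SH-EP2 cells, 8 times in the difference between the lines and 0 times between the control cells. The spread estimate mattered most. With eBayes without an intensity trend 0 members were called in SH-SY5Y cells, 0 in SH-EP2 cells and 0 in the difference between the lines, with 2, 2 and 4 at an unadjusted p under 0.05. EGR1 in SH-SY5Y cells then had an adjusted p of 0.0546, DUSP6 and SPRY2 in SH-EP2 cells had 0.118 and 0.125, and the interactions of EGR1, DUSP6 and SPRY2 had 0.0921, 0.243 and 0.287, while JUN lost its call between the control cells (adjusted p = 0.0696). Over all probes this setting called 64 in SH-SY5Y cells in place of 1003, 102 in SH-EP2 cells in place of 1433 and 23 in place of 670 in the difference. Without background correction 2 members were called in SH-SY5Y cells, JUN (-0.30, adjusted p = 0.0488) beside EGR1. DUSP5 passed in the difference between the lines with normexp (0.61) and without background correction (0.49). With single arrays left out, 1 to 3 members were called in SH-SY5Y cells, 2 to 2 in SH-EP2 cells, 3 to 4 in the difference and 8 to 10 between the control cells. Replicate numbers did not pair the samples (correlation of replicate differences -0.111 in SH-SY5Y and -0.00442 in SH-EP2 cells over 14577 probes), and with the replicate block 1, 2, 3 and 9 members were called, as without it. Of all 47322 probes the block called 806, 1142, 500 and 12018, in that order. Between the control cells 61.5% of genes detected on all 8 arrays were called in the main fit. With median scaling the median difference over all probes in SH-SY5Y cells was 0.0923, against 0.0048 with quantile normalization, and the share of calls that were higher was 66.1% in place of 38.5%, and 37.1% in place of 56.4% in the difference, whereas EGR1 in SH-SY5Y cells was at -1.20. FOS, FOSL1, JUNB and DUSP4 lie close to background in at least 1 line, which limits what can be said of them.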
